A study of Mus musculus with 8 samples.

Results

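The cytosolic chaperonin, called TRiC or CCT, was followed through the mRNA of its 8 subunit genes, Tcp1, Cct2, Cct3, Cct4, Cct5, Cct6a, Cct7 and Cct8, in mouse fibroblasts sorted as G1 or as G0. Its members were all array probe sets whose only gene symbol in the platform annotation is one of those 8. They numbered 25 of the 45037 probe sets tested, for 8 of 18193 genes. Cct3 and Cct4 had 7 probe sets each, Cct2 had 3, Cct6a, Cct7 and Cct8 had 2 each, and Tcp1 and Cct5 had 1 each. Probe sets of a gene share their transcript and are not replicates of a condition.

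The cells were NIH3T3, an established mouse embryonic fibroblast line, and in both groups they carried 2 reporters introduced by transduction, mVenus-p27K- together with mCherry-hCdt1(30/120). mVenus-p27K- is a fluorescent fusion of a mutant of p27, an inhibitor of the cell cycle kinases that is abundant in resting cells. The other is a fluorescent fusion of a fragment of human Cdt1 that is present before S phase. All cells were grown without serum and then for 5 h in medium with 10% serum. The G1 group held mVenus-negative, mCherry-positive cells and the G0 group mVenus-positive, mCherry-positive cells, with 4 Affymetrix arrays per group. The promoter that drove the reporters, and whether the cells were a clone, are not given in the sources used here. Labels do not say whether replicates were separate cultures, and p-values therefore reflect only the spread among these samples, some of which may be technical.

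TRiC is a double ring of related subunits, each at its own place, which closes around a protein that has not yet folded and uses ATP to help it fold. Actin and tubulin depend on it, as do proteins with WD40 repeats such as the mitotic activator Cdc20. Prefoldin hands new actin and tubulin chains to the chaperonin, and phosducin-like proteins act as its cofactors. Because every ring needs each of the 8 subunits, their transcripts are read here as a set as well as singly.

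Transcription start windows of 300 bases (250 before to 50 after the start) were at hand for 7 of the 8 genes, all but Cct4, in RefSeq's annotation of mouse build GRCm38.p6. For 3 of them the 250 bases before the start are shown 5′ to 3′, because 2, those of Tcp1 and Cct3, hold an E2F-type match and the other, that of Cct7, holds the most CCAAT matches. All 3 genes lie on the plus strand. Capitals mark CCAAT, read as ATTGG on the other strand, and TTTNGCGC.
Tcp1: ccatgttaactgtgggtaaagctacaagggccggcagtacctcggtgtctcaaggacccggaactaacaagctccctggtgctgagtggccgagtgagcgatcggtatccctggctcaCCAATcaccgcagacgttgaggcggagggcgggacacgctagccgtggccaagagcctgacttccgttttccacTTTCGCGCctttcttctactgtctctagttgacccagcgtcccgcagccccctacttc
Cct3: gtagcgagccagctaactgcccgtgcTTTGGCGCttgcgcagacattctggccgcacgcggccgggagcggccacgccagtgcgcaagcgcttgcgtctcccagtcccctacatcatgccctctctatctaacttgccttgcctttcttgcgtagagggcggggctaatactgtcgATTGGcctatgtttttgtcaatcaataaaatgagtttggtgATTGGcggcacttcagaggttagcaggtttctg
Cct7: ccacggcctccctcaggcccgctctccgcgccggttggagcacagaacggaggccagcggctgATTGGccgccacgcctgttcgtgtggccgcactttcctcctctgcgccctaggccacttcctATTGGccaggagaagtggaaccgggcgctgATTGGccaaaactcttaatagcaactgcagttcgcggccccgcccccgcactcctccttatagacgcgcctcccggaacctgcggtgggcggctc
These stretches lie at chr17:12916079-12916328 for Tcp1, chr3:88296885-88297134 for Cct3 and chr6:85451255-85451504 for Cct7. Counted from the start site to the first base of the match, the E2F-type match stood at −58 in Tcp1 and at −224 in Cct3. CCAAT stood at −132 in Tcp1, at −74 and −33 in Cct3 and at −187, −125 and −95 in Cct7.

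Motifs were searched on both strands of the whole 300-base windows, and no match of a motif overlapped a match of another in the 9 windows of these 7 genes. TTTNGCGC, a form of the site of E2F factors, was in 2 genes' windows, Tcp1 and Cct3, and in 1.38% of 32851 windows of all genes. CCAAT, the box bound by NF-Y, was in 4 genes (Cct3, Cct6a, Cct7 and Tcp1) and in 37.4% of all windows. The GC box GGGCGG was in all 7 genes, in 8 of their 9 windows, and in 35.7% of all windows. The E-box CACGTG was in 0 of the 9 windows and in 7.15% of all. Of the pairs of heat shock units, GAANNTTC was in Cct2 (7.86% of all windows) and TTCNNGAA was in Cct5 and Cct6a (8.52%). These are matches of letters in a window and not sites shown to be bound.

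No chaperonin probe set differed past the threshold between G1 and G0 cells, and in 19 of 25 the 95% interval of the difference stayed within 2-fold either way. The deposited values are expression on a log scale, read as log2, centred on each probe set's own median over the 8 arrays, so differences between groups are measured and levels are not. Of the 25 probe sets, 0 passed the test in limma (adjusted p under 0.05 over all 45037 probe sets), where 0.4% of all probe sets did (0.373% higher and 0.0266% lower in G1). At an unadjusted p under 0.05, 0 of 25 passed, against 7.3% of all. The members' smallest p was 0.249, for Tcp1, and their adjusted p ran from 0.876 to 0.9995. The groups overlapped in all 25, so that 0 were below 0.05 in an exact permutation test over the 70 splits of the arrays, against 6.06% of all probe sets. In bulk samples, fewer cells with a transcript and less RNA per cell cannot be told apart.

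The differences, G1 minus G0, leaned slightly upward. They were positive in 16 of 25 probe sets (64.0%, against 45.0% of all probe sets), with a median log2 difference of 0.06 (−0.06 over all probe sets). The median size of the difference without its sign was 0.11 for the members and 0.34 for all probe sets. With 1 probe set per gene the median over the 8 subunits was 0.16, against −0.06 over all genes. Without G0 replicate 3 it was 0.09, and without G0 replicate 1 it was 0.10. These medians carry no test. The probe sets that stood for Cct3 (−0.57) and Cct8 (0.45) scattered widely, with a within-group standard deviation of 1.33 and 1.24.

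How well the arrays could measure a difference varied with the probe set. In 15 of the 25 the standard deviation (SD) within groups was under 0.3 log2 units (60.0%, against 19.7% of all probe sets), and each of the 8 subunits had at least 1 such probe set. Their log2 differences lay between −0.02 and 0.25, or 0.984-fold to 1.19-fold, and 13 of the 15 were positive. Their 95% confidence intervals reached from −0.50 to 0.80, so all 15 excluded a 2-fold change either way, with an upper bound of at most 1.74-fold. A low SD itself makes the interval narrow, and saturated probe sets, which could also vary little, cannot be recognised in centred values. Over all 25 the interval stayed within 2-fold in 19 (76.0%, against 29.4% of all probe sets). Within the batches named by the labels the 15 differences ran from −0.01 to 0.36 among replicates 1 to 3 and from −0.32 to 0.43 for replicate 4.

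**Figure D1:**
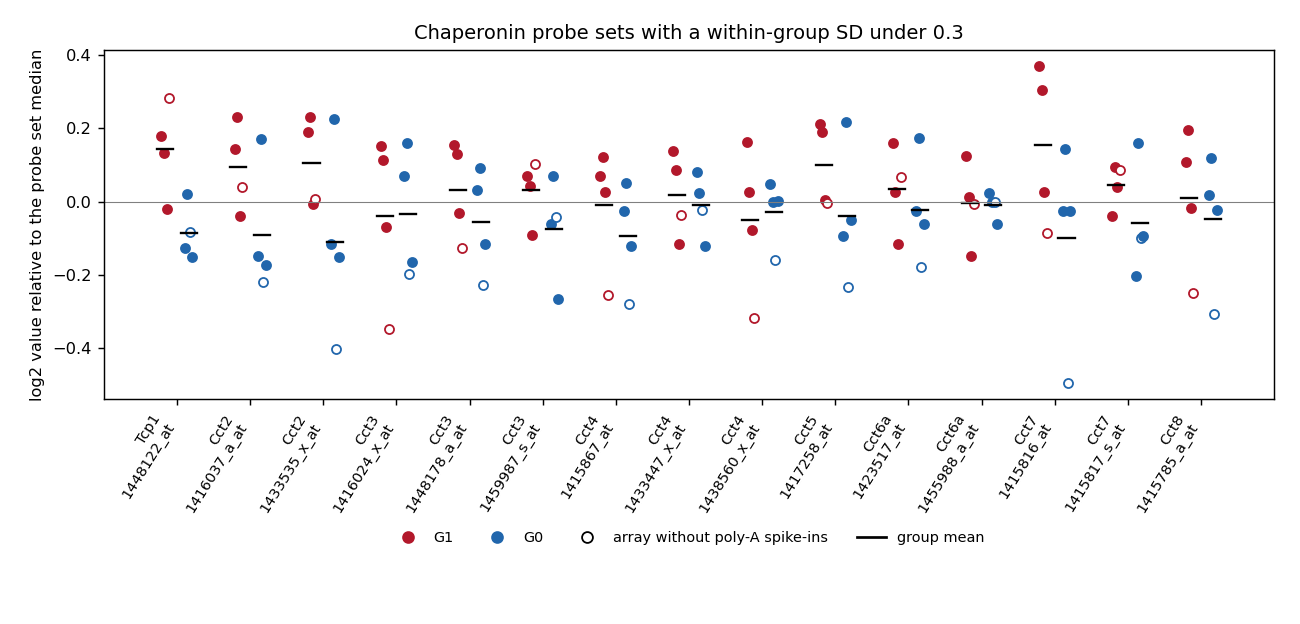
Log2 values relative to each probe set's median (vertical axis) for the 15 chaperonin probe sets with a within-group SD under 0.3, by subunit and probe set; red points are G1 arrays, blue points G0 arrays, open points the 2 arrays without spike-in controls and bars the group means (n = 4 each). All values lie between −0.50 and 0.37 and the groups overlap in every probe set.

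Spike-in controls, bacterial transcripts added to the RNA before labelling, were missing on G1 replicate 4 and G0 replicate 3, with median log2 values of −6.12 and −7.12 against −0.16 to 0.64 on the other arrays. The labels give another kit protocol (revision 3, against 8) and another amount of RNA to replicate 4 of each group, so the controls and the labels disagree on G0 replicates 3 and 4. A fit with the batch that the controls show, in place of the labelled one, again called 0 of 25 members (0.788% of all probe sets) and 0 at an unadjusted p under 0.05 (11.3%). On the 6 arrays with controls, limma called 0 members (0.0977% of all) and 1 at an unadjusted p under 0.05 (8.16%). Of the 20 measured markers of leukocytes, epithelium, endothelium, muscle and fat, 0 passed in limma, with 1 higher and 1 lower at an unadjusted p under 0.05. Of 8 fibroblast markers 0 passed, and 1, Col3a1, was lower at an unadjusted p under 0.05 (log2 difference −0.72, adjusted p = 0.432). Centred values do not show whether a marker is present, so the identity of the cells could not be checked by level.

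Tcp1, the alpha subunit, whose gene was found in the t-complex region of mouse chromosome 17, came closest to separating the groups. Its log2 values were 0.18, 0.13, −0.02 and 0.28 on G1 replicates 1 to 4, against −0.13, 0.02, −0.08 and −0.15 on G0 replicates 1 to 4. G1 replicate 3 was the only G1 array below the highest G0 array, replicate 2. The group means were 0.14 ± 0.13 in G1 and −0.09 ± 0.08 in G0 (SD, n = 4 each), a log2 difference of 0.23, or 1.17-fold (95% interval −0.20 to 0.66; limma, adjusted p = 0.876). The exact permutation test gave p = 0.0571, two-sided and unadjusted, where the smallest possible is 0.0286. Among replicates 1 to 3 the difference was 0.16 and for replicate 4 it was 0.43, while it was 0.18 among arrays with spike-in controls and 0.37 among those without.

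Cct7, the eta subunit, which in yeast binds the tumour suppressor VHL together with Tcp1, had the largest difference among the 15 probe sets of low spread. Probe set 1415816_at read 0.37, 0.30, 0.03 and −0.09 on G1 replicates 1 to 4, against −0.03, 0.15, −0.50 and −0.03 on G0 replicates 1 to 4. The first 2 G1 arrays were highest and G0 replicate 3 lowest, while G1 replicate 4 lay below 3 of the 4 G0 arrays. Means were 0.15 ± 0.22 in G1 and −0.10 ± 0.28 in G0 (SD, n = 4 each), and the log2 difference was 0.25, or 1.19-fold (−0.29 to 0.80; limma, adjusted p = 0.899). Among replicates 1 to 3 it was 0.36, and for replicate 4 it was −0.06, so its sign turned there. The other probe set of Cct7, 1415817_s_at, differed by 0.10 (−0.34 to 0.55).

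Cct2, Cct4 and Cct5 are the beta, delta and epsilon subunits, to which actin binds in the mammalian complex. Cct2 (1416037_a_at) read 0.14, 0.23, −0.04 and 0.04 on the G1 arrays, against −0.15, 0.17, −0.22 and −0.17 on the G0 arrays. Cct5 (1417258_at) read 0.21, 0.19, 0.00 and 0.00 in G1, against −0.09, 0.22, −0.23 and −0.05 in G0. In both, G0 replicate 2 stood with the higher G1 arrays and the other G0 arrays stood lower. The log2 difference was 0.19 for Cct2 (−0.28 to 0.65; limma, adjusted p = 0.924). For Cct5 it was 0.14 (−0.32 to 0.60; limma, adjusted p = 0.951). A second Cct2 probe set of low spread, 1433535_x_at, differed by 0.22, and the third, 1433534_a_at, by 0.00 with a lowest value of −0.96 on G1 replicate 4.

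Cct4 was nearly level between the groups. Probe set 1433447_x_at, the one of lowest spread, read 0.14, 0.09, −0.12 and −0.04 in G1, against 0.08, 0.02, −0.02 and −0.12 in G0. The groups covered nearly the same range, and the log2 difference was 0.03 (−0.40 to 0.46; limma, adjusted p = 0.992). The 2 further probe sets of low spread, 1415867_at and 1438560_x_at, differed by 0.09 and −0.02. Of all 7, 2 were positive and the median was −0.02.

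Cct3, the gamma subunit, also had 3 probe sets of low spread. On 1459987_s_at it read 0.07, 0.04, −0.09 and 0.10 in G1, against −0.06, 0.07, −0.04 and −0.27 in G0. One G0 array, replicate 4, stood below the others, and the log2 difference was 0.11 (−0.34 to 0.55; limma, adjusted p = 0.969). The 2 others, 1448178_a_at and 1416024_x_at, differed by 0.09 and 0.00. Of its 7 probe sets 4 were positive, with a median of 0.00.

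Cct6a, the zeta subunit of most tissues, whose paralogue Cct6b is the form of the testis, showed the smallest spread of the set. Probe set 1455988_a_at read 0.13, 0.01, −0.15 and −0.01 in G1, against 0.02, 0.00, 0.00 and −0.06 in G0. The G0 values lay inside the range of the G1 values, and the log2 difference was 0.00 (−0.43 to 0.44; limma, adjusted p = 0.999). Its other probe set, 1423517_at, differed by 0.06 (−0.40 to 0.51).

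Cct8 is the theta subunit, whose increase raises assembly of the complex in human cells. Probe set 1415785_a_at read 0.11, 0.20, −0.02 and −0.25 in G1, against 0.02, 0.12, −0.31 and −0.02 in G0. The lowest value of each group was on its array without spike-in controls. The log2 difference was 0.06 (−0.43 to 0.55; limma, adjusted p = 0.985). All low-spread differences lay between −0.02 and 0.25, a range narrower than any of their intervals, so an order among the subunits could not be read.

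**Figure D2:**
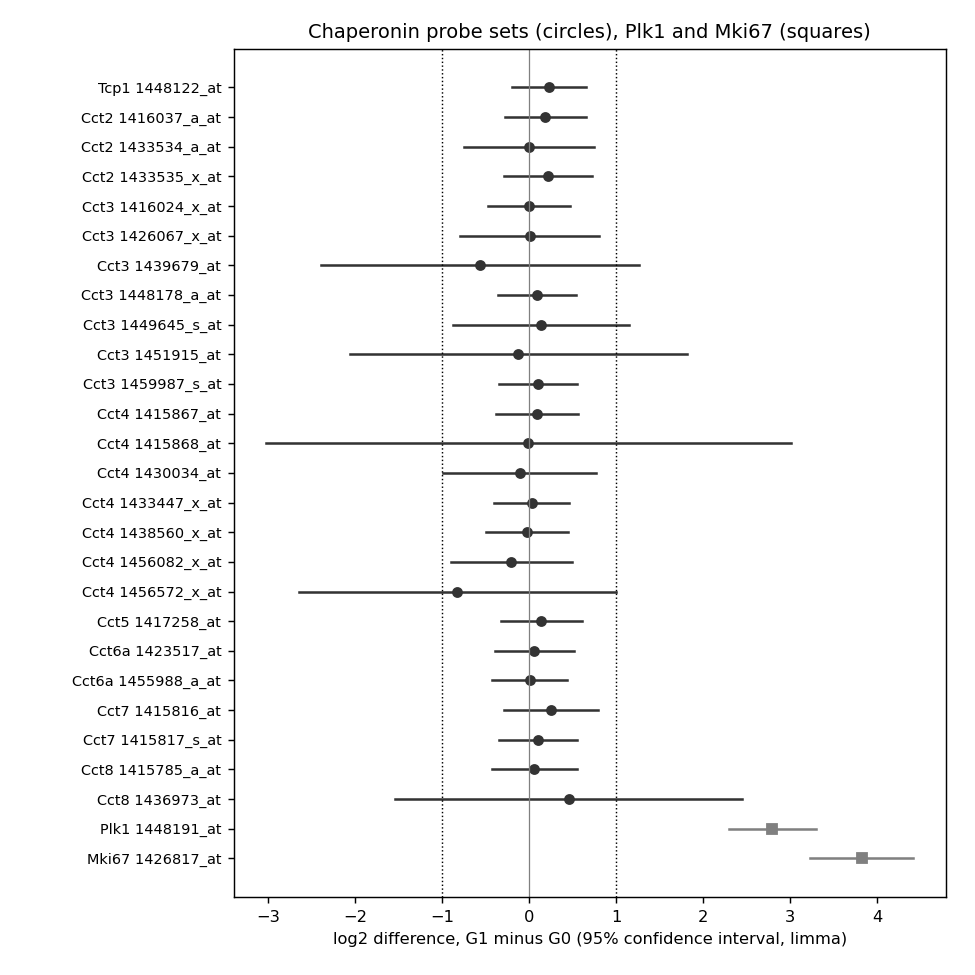
Log2 difference, G1 minus G0, with its 95% confidence interval from limma (horizontal axis) for the 25 chaperonin probe sets (circles) and, for scale, Plk1 and Mki67 (squares); dotted lines mark 2-fold either way. All 25 intervals cover 0 and 19 lie within the dotted lines, while Plk1 (2.80) and Mki67 (3.82) lie beyond them.

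The same scale held large differences for some proliferation genes on these arrays. Mki67, the proliferation marker Ki-67, was 14.2-fold higher in G1 (log2 difference 3.82, 95% interval 3.23 to 4.42; limma, adjusted p = 0.0089). Its 4 values ran from 1.58 to 2.17 in G1, against −2.48 to −1.58 in G0. Of 7 genes listed as a reference for proliferation, 3 passed, where 0.5% of all genes were called higher. The others were Birc5, survivin, at 3.47 and Ccna2, cyclin A2, at 2.96. With the labelled batch, these 3 calls too held in 2 of the 8 limma fits without a single array (without G0 replicate 1 or 3), while the differences stayed at 2.87 or more. The 4 reference genes not past the threshold were Mcm5, Pcna, Mcm2 and Top2a. They differed by 1.305, 0.71, 0.70 and 0.21, so the smallest was within the range of the chaperonin subunits.

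A few chaperonin probe sets scattered too widely to read. In 5 of 25 the within-group SD was over 1 (20.0%, against 36.9% of all probe sets), namely Cct3 1439679_at and 1451915_at, Cct4 1415868_at and 1456572_x_at, and Cct8 1436973_at. Their differences ran from −0.83 to 0.45, with intervals reaching from −3.02 to 3.01. The sign differed between the labelled batches in all 5 and between the spike-in batches in 4. Each of these 3 genes also had a probe set with an SD under 0.3, described above.

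**Figure D3:**
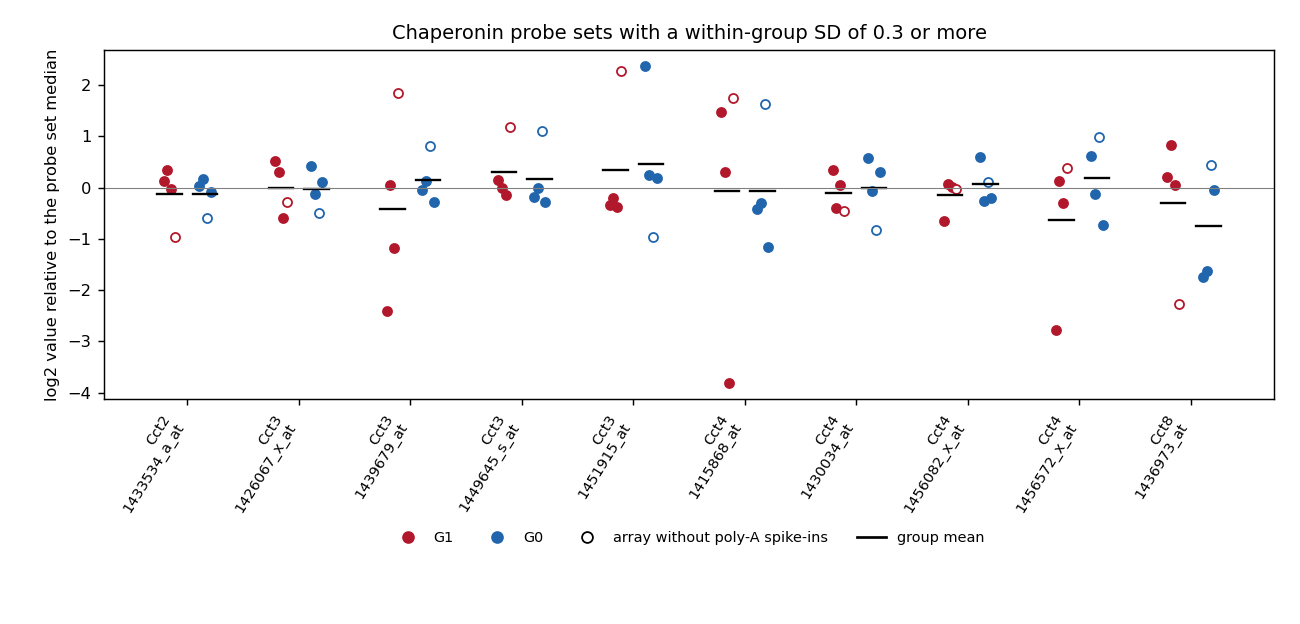
Log2 values relative to each probe set's median (vertical axis) for the 10 chaperonin probe sets with a within-group SD of 0.3 or more, by subunit and probe set; red points are G1 arrays, blue points G0 arrays, open points the 2 arrays without spike-in controls and bars the group means (n = 4 each). Single arrays lie as far out as −3.82 (Cct4 1415868_at, G1 replicate 3) and 2.38 (Cct3 1451915_at, G0 replicate 1).

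Cct8 1436973_at shows how single arrays set such values. It read 0.20, 0.83, 0.06 and −2.27 on G1 replicates 1 to 4, against −1.74, −1.63, 0.44 and −0.06 on G0 replicates 1 to 4. Low values occurred in both groups, and the arrays without spike-in controls were the lowest in G1 and the highest in G0. The log2 difference was 0.45 over 8 arrays (−1.54 to 2.45) and 1.50 on the 6 arrays with spike-in controls (0.12 to 2.89; limma, adjusted p = 0.579). Cct3 1439679_at read −2.41, 0.05, −1.17 and 1.86 in G1, against −0.05, 0.13, 0.81 and −0.28 in G0. Its difference was −0.57 (−2.40 to 1.26), with opposite signs within the labelled batches (−1.47 and 2.13).

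One chaperonin probe set differed between arrays with and without spike-in controls. Cct3 1449645_s_at read 1.18 on G1 replicate 4 and 1.11 on G0 replicate 3, and −0.29 to 0.14 on the 6 others. The arrays without controls stood 1.23 log2 units above those with them (limma, adjusted p = 0.0178), where 4.75% of all probe sets were called for this term. It was the only member called of the 25, which is close to that share of all probe sets. Over the 25 members the median of this term was −0.12 (0.18 over all probe sets), and 15 were negative (60.0%, against 40.8% of all). Between G1 and G0 this probe set differed by 0.13 (−0.88 to 1.14). An _s_at or _x_at suffix marks a probe set that may also read other transcripts.

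**Figure D4:**
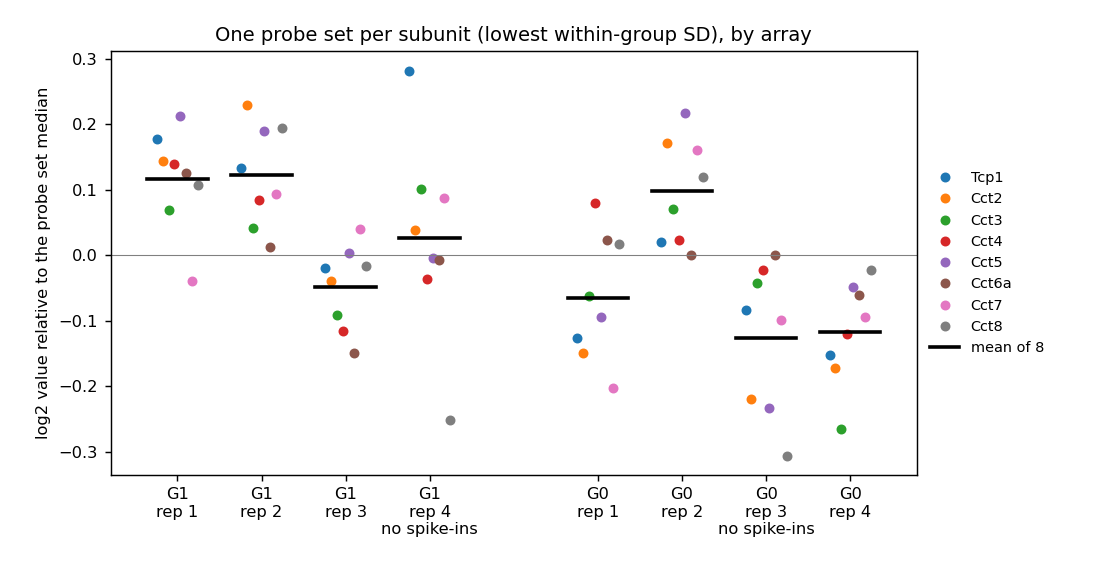
Log2 value relative to the probe set median (vertical axis) on each of the 8 arrays for the least scattered probe set of each subunit (coloured points) and their mean (black bars). The means are highest on G1 replicates 1 and 2 (0.12 each) and G0 replicate 2 (0.10), and lowest on G0 replicates 3 and 4 (−0.13 and −0.12).

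The subunits tended to vary together over the 8 arrays. With the least scattered probe set of each subunit, the mean over the 8 was 0.12, 0.12, −0.05 and 0.03 on G1 replicates 1 to 4, against −0.06, 0.10, −0.13 and −0.12 on G0 replicates 1 to 4. G0 replicate 2 stood with the high G1 arrays and G1 replicate 3 with the low G0 arrays, so the groups overlapped. The group means were 0.06 ± 0.08 in G1 and −0.05 ± 0.10 in G0 (SD, n = 4 each), a difference of 0.11. The 3 arrays of the highest mean also had the lowest medians over all probe sets, −0.04, −0.07 and −0.06, against −0.01 to 0.09 on the others. The part of array scaling in this pattern was not tested.

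Over the 8 arrays 26 of the 28 pairs of subunits had a positive Pearson r, with a median of 0.53 and 0.47 after the group means were removed. The closest pair was Cct2 and Cct5, at 0.94, and the least alike were Cct6a and Cct7, at −0.15. Cct2 was nearest to the mean of the other subunits (0.97), followed by Cct5 (0.89), Cct3 (0.70) and Tcp1 (0.64), and Cct6a was farthest (0.44). These r describe 8 arrays that share scaling and labelling, and they carry no test.

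Among probe sets outside the set, those most like the mean of the 8 subunits depended on which probe sets stood for them. With the probe sets chosen by suffix, 2 of them scattered, the nearest were Pnliprp1, Ssr3, Phf7, Tnfsf10, Iffo2, Khdrbs1, Tpbg and Rad23b, with r from 0.953 down to 0.924 over 8 arrays. With the least scattered probe sets, a choice made after seeing the data, they were Rbm12, Ybx1, Pcsk1n, Rps7, Myct1, Rps24, Ank1 and Atp1b3, with r from 0.981 down to 0.945. No name was common to both. They were picked as the highest r among all probe sets with 1 symbol, and carry no test. Their within-group SD ran from 0.04 (Ssr3) to 1.31 (Phf7).

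Among genes of chaperone systems, cofactors and clients, a single one passed. Of 105 measured genes in 9 companion lists, 1 was higher and 0 lower over all genes tested in limma (0.522% of all genes in either direction), and 7 were higher and 1 lower at an unadjusted p under 0.05 (8.07% of all genes, 4.33% higher and 3.74% lower). List medians ran from −0.13 to 0.12, against −0.06 for all genes. Leaving out the 2 lists of substrates and clients, 0 of 75 chaperone and cofactor genes passed, with 1 higher and 1 lower at an unadjusted p.

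**Figure D5:**
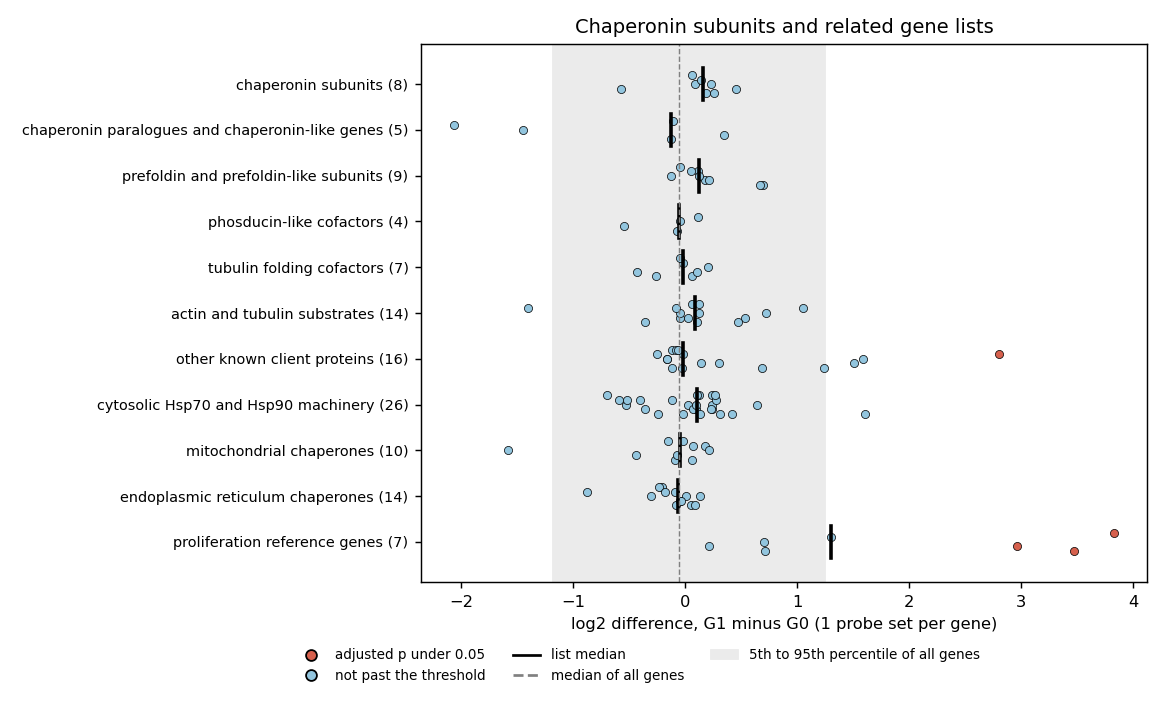
Log2 difference, G1 minus G0, of 1 probe set per gene (horizontal axis) for the chaperonin subunits, 9 companion lists and the proliferation reference genes, with the number of measured genes in brackets; red points passed the test, bars are list medians, the dashed line is the median of all genes and the grey band their 5th to 95th percentile (−1.18 to 1.25). Among the companion lists the only red point is Plk1, and 7 of the 8 subunits lie above 0. The points of Cct3 (−0.57) and Cct8 (0.45) are of probe sets with a within-group SD over 1.

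Among the helpers, prefoldin had 9 measured genes, none past the threshold and 1 higher at an unadjusted p, with a median of 0.12. That gene was Pfdn6, a prefoldin subunit, at 0.66 (0.01 to 1.32; limma, adjusted p = 0.680). Pfdn2 differed by −0.13, and the prefoldin-like Uri1 and Pdrg1 by 0.21 and 0.70. Of 4 phosducin-like genes and 7 tubulin folding cofactors 0 passed, also at an unadjusted p, with medians of −0.06 and −0.02. Pdcl3, a phosducin-like protein, differed by −0.05, Tbca, which holds beta-tubulin after its release, by 0.10, and Tbcb, which holds alpha-tubulin, by 0.20. Pdcl and Txndc9 differed by −0.07 and 0.12, and Tbce and Tbcel by −0.26 and −0.43. Pdcl2 differed by −0.55, with an interval of −5.29 to 4.20.

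Of 5 chaperonin paralogues and chaperonin-like genes 0 passed in limma, also at an unadjusted p. Cct6b differed by −1.45 (−3.22 to 0.31) and Cct8l1 by −2.06 (−5.80 to 1.68), intervals too wide to read, and Bbs12, a chaperonin-like protein of cilium assembly, by 0.34 (−0.20 to 0.89).

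Among 14 measured actin and tubulin genes, the chaperonin's main substrates, 0 passed and 1 was higher at an unadjusted p in limma. Tubg1, the gamma-tubulin of the centrosome, read 0.98, 0.33, 0.11 and 0.96 in G1, against −0.12, −0.86, −0.11 and −0.74 in G0. Its groups did not overlap, and the log2 difference was 1.05 (0.30 to 1.79; limma, adjusted p = 0.464). Tubb4b, a beta-tubulin, differed by 0.47, and its groups did not overlap either, which held for 6.06% of all probe sets. Actg2, a smooth muscle actin, differed by −1.41 (−3.09 to 0.27). Neither gene was past the threshold. Actb (1419734_at), the cytoplasmic beta-actin, differed by −0.05, with an interval too wide to read (−3.48 to 3.39). It read −3.74 on G1 replicate 4 and −3.54 on G0 replicate 3, the arrays without spike-in controls, and −0.06 to 0.09 on the others. Tuba1b and Hsp90ab1 were not analysed here.

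Clients other than actin and tubulin held the single call. Plk1, a mitotic kinase that binds the chaperonin, read 1.58, 1.28, 1.23 and 1.87 in G1, against −1.23, −1.29, −1.26 and −1.45 in G0. The groups stood far apart, and the difference was 2.80 log2 units, or 6.95-fold (2.30 to 3.30; limma, adjusted p = 0.0089). With any single array left out the difference stayed between 2.62 and 2.88. In those fits with the labelled batch Plk1 passed in 2 of 8, without G0 replicate 1 or 3 (adjusted p from 0.0246 to 0.131). With the spike-in batch it passed in 5 of 8, all but those without G1 replicate 1, 3 or 4, and on the 6 arrays with controls its adjusted p in limma was 0.041. Cdc20 differed by 1.58 (0.66 to 2.50; limma, adjusted p = 0.305). Ccne1, cyclin E1, differed by 1.50 (0.87 to 2.14; limma, adjusted p = 0.113). In the limma fit with the batch of the spike-in controls, which called 0.929% of all genes higher, Plk1, Cdc20 and Ccne1 all passed (adjusted p = 0.0035, 0.0441 and 0.0060). Of the 16 measured clients 1 passed, 5 were higher and 0 lower at an unadjusted p under 0.05, and the median was −0.02. The 2 others of these 5, named after their values were seen, were Aaas at 1.24 and Wrap53 at 0.68, both WD40 proteins (limma, adjusted p = 0.383 and 0.498).

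Other chaperone systems showed no call either. Of 26 measured genes of the cytosolic Hsp70 and Hsp90 machinery 0 passed, also at an unadjusted p, and the median was 0.10. Hspa8, the constitutive Hsp70, differed by 0.07, Hspa2 by −0.52, Hspa14 by 1.60 (−0.33 to 3.54) and Fkbp5 by 0.64. Of 10 mitochondrial chaperones 0 passed, and Hspd1, the mitochondrial chaperonin Hsp60, differed by 0.21 (−0.24 to 0.66). Clpx differed by −0.44 (−0.98 to 0.10) and Dnaja3 by −1.58 (−4.10 to 0.94). Of 14 chaperones of the endoplasmic reticulum 0 passed and 1 was lower at an unadjusted p. That gene was Dnajb9, at −0.88 (−1.43 to −0.34; limma, adjusted p = 0.357). Hspa5, the Hsp70 of that compartment, differed by −0.05, Dnajc3 by −0.20 and Serpinh1, which folds collagen, by −0.18.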

How the data were processed

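RNA of 4 G1 and 4 G0 samples was measured on Affymetrix arrays. Per the submitters' processing notes MAS5 was used. The deposited values are on a log scale, read here as log2. Each of 45101 probe sets was centred on its own median (largest absolute median 5e-07). The step that took logs and centred, and a genome build, are not given in the sources used here. Base 2 was assumed for the logs, as values ran from −12.4 to 5.58.  Dim or saturated probe sets cannot be recognised in centred values, so no level filter was used.

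The 64 control probe sets were left out. Of 45037, 34945 had 1 symbol, 932 several and 9160 none. Symbols were looked up through Entrez identifiers for 34741, and those of the members stayed the same. Limma 3.58.1 in R 4.3.3 (lmFit, eBayes with trend) was fitted to all probe sets with group and labelled batch, two-sided, with Benjamini-Hochberg adjustment and a threshold of 0.05. The fit had 5 residual and 2.34 prior degrees of freedom and was tested on simulated data. The number of arrays limits precision. A gene was represented by 1 probe set (suffixes _at, _a_at, _s_at, _x_at, then lowest number).

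The members and gene lists were chosen with earlier results of these data known. Named were all members, in each list the genes past the threshold and the 3 of smallest p, 10 further fixed names, and the 8 probe sets most like the subunits' mean. Deviations of same-numbered samples from their group means correlated at 0.069, 0.106, −0.139 and −0.136 for replicates 1 to 4. For replicates 1 and 2 this was the highest correlation of either array with the other group. G1 replicate 3 was closest to G0 replicate 4 (0.1). Whether the samples were paired, and whether G0 replicates 3 and 4 were exchanged in the labels, was not tested. The highest such correlation between a G1 and a G0 array was 0.309. It joined G1 replicate 4 and G0 replicate 3, the arrays without spike-in controls, and its cause was not tested. Alternatives changed batch, arrays, variance model, scaling, test and probe set per gene. Those with an exact permutation test, the spike-in batch without single arrays, and the least scattered probe sets were chosen after seeing the data.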

Additional observations from a re-analysis of the deposited data

Results flagged for a closer look

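Among 50 groups of 4 arrays of chaperonin probe sets, 2 held 1 value far from the other 3, and among 152 such groups of all genes named, 12 did. Chance gives about 1 in 20. Cct3 1451915_at read 2.27 on G1 replicate 4 and −0.38 to −0.20 on the other G1 arrays. Cct4 1456082_x_at read −0.65 on G1 replicate 1 and −0.02 to 0.07 on the other G1 arrays. Neither probe set was past the threshold between the groups.

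On G1 replicate 4, which lacks spike-in controls, Actb read −3.74, Tbca −0.42, Pdcl 0.53 and Cdc20 1.14, each apart from the other 3 G1 arrays. On G0 replicate 3, which lacks them too, Actb read −3.54 and Ccne1 −1.04, each below the other 3 G0 arrays. Tbca read −0.50 and Pdcl 0.49 on that array. On G0 replicate 2, Cct6b read −1.29 and Pdcl2 −3.64. Hspa2 read 0.014 on G0 replicate 4, below 0.22 on the others, and Cdh5 read −4.97 on G1 replicate 1, against −0.14 to 0.42 on the other G1 arrays. The part of labelling in these values was not tested.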

How the results depend on the processing

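In each of 25 alternative limma fits 0 chaperonin probe sets passed, with at most 1 at an unadjusted p under 0.05. That unadjusted bound was met by 2750 to 5068 of all probe sets. In the exact permutation test 0 members passed. In several of the limma fits 0 of all probe sets passed, so a 0 for the members says little there. Some fits also share their estimate and are not separate support. Of 625 recomputed differences, 86 had another sign than the reported one, in 13 of the 25 probe sets. The count that moved by over 1 within-group SD was 0, which many of the fits fix in advance. On all 8 arrays another batch term leaves the estimate unchanged, and leaving out 1 array per group cannot move it past that SD. The difference of Cct8 1436973_at ran from 0.03 to 1.505 and that of Cct4 1415868_at from −0.98 to 1.27. The smallest adjusted p of a member in these limma fits was 0.527. The median over the 8 subunits lay between 0.09 (without G0 replicate 3) and 0.22 in the alternatives run, and that over all 25 probe sets was 0.06.

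The count over all probe sets, 180, varied between alternatives. It was 355 with the spike-in batch, 44 on the 6 arrays with spike-ins, and 0 in labelled batch 1 alone, where limma had 3575 at an unadjusted p under 0.05. With the replicate block it was 0 in limma, with 3219 at an unadjusted p under 0.05, and 0 members passed. That block used the replicate numbers as labelled, and whether they pair the samples is not known. A call lost there is therefore not evidence of a weaker effect. Leaving out single arrays gave 0 to 122 with the labelled batch, with 0 in 6 of 8 limma fits (2750 to 3731 at an unadjusted p under 0.05), and 46 without G0 replicate 1. With the spike-in batch it gave 0 to 237. Without replicate 4 of either group, the labelled batch term absorbs the other array of that batch. The causes of the other shifts were not tested. With 4 arrays per group, changes inside the stated intervals could not be told from 0, and probe sets with an SD over 1 exclude little.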
